A study of Mus musculus with 8 samples.

Results

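The genes of the type IV collagen chains, Col4a1, Col4a2, Col4a3, Col4a4, Col4a5 and Col4a6, were followed in the cochlea of miR-29a KO and WT mice. They were chosen by gene symbol alone, and all 6 were found among the 21895 genes of the deposited table and passed the filter on low values. RNA of the cochlea, the inner ear organ of hearing, was sequenced in 8 libraries, 4 per group (numbered WT1 through WT4 and KO1 through KO4). WT mice carried the intact gene and KO mice lacked it (miR-29a-/-). Both came from heterozygous breeding on a C57BL/6 background, both sexes were used, and the labels list no treatment. The deletion was carried by all cells of the mouse rather than by chosen cells of the cochlea, and whether it reaches the neighbouring miR-29b copy is not given in the sources used here. Their age was 21 days by the sample records and 2 months by the methods of the study. Nothing in the labels says that the libraries of a group came from separate mice, so the p-values measure the spread between libraries. The deposited values were FPKM, fragments scaled by transcript length and by the mapped fragments of the library, so that levels of different chains were compared per length. The miR-29a transcript itself was not analysed here, and the genotype labels were therefore not checked by it.

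Type IV collagen is the network-forming collagen of basement membranes, the thin matrix sheets beneath epithelia and around vessels, nerve fibres and muscle cells. Its chains assemble inside the cell into trimers called protomers, which join end to end through their carboxy-terminal NC1 domains after secretion. Only 3 protomers are known, one with Col4a1 and Col4a2 chains at 2 to 1, one with Col4a3, Col4a4 and Col4a5 chains at 1 each, and one with Col4a5 and Col4a6 chains at 2 to 1. The Col4a1 and Col4a2 network is found in nearly all basement membranes, whereas the Col4a3, Col4a4 and Col4a5 network is found in a few tissues, among them the glomerulus of the kidney and the cochlea. Loss of the latter network causes Alport syndrome, a disease of the kidney with hearing loss.

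The 6 genes lie in 3 head-to-head pairs, in which both genes of a pair are read away from a shared start region (GRCm38 coordinates). Col4a1 (ENSMUSG00000031502, chr8:11198423-11312826, minus strand) and Col4a2 (ENSMUSG00000031503, chr8:11312805-11449287, plus strand) overlapped by 22 bases at their starts. Col4a4 (ENSMUSG00000067158, chr1:82448298-82586849, minus strand) and Col4a3 (ENSMUSG00000079465, chr1:82586921-82722059, plus strand) were 71 bases apart. Col4a6 (ENSMUSG00000031273, chrX:141165403-141474076, minus strand) and Col4a5 (ENSMUSG00000031274, chrX:141475385-141689234, plus strand) were 1308 bases apart. Reads from the 22 overlapping bases can be told apart by strand only, and whether the FPKM were counted by strand is not given in the sources used here. The gap of the Col4a4 and Col4a3 pair is shown because it holds the whole sequence between the annotated starts of both genes (GRCm38, chr1:82586850-82586920, plus strand, 69.0% G and C, all in lower case).
Col4a4-Col4a3 gap: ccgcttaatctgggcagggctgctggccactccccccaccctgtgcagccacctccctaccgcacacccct

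MiR-29a belongs to a family of miRNAs, short RNAs that pair with the 3′-UTR of an mRNA through a seed near their 5′ end and lower the mRNA or its translation. The mature sequences (RefSeq, GRCm38.p6) are shown to compare the seed of the deleted miRNA with those of its relatives, with bases 2 to 8, the seed, in capitals. MiR-29a-3p lies at chr6:31062673-31062694 on the minus strand, and miR-29c-3p at chr1:195037600-195037621 on the plus strand. MiR-29b-3p has a copy beside each of them, at chr6:31063025-31063047 on the minus strand and at chr1:195037091-195037113 on the plus strand. The seed was the same in all 3.
mmu-miR-29a-3p: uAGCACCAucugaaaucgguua
mmu-miR-29b-3p: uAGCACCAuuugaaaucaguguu
mmu-miR-29c-3p: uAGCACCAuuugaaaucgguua

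The match to this seed, TGGTGCT, was searched on the sense strand of the longest annotated 3′-UTR of each chain (GENCODE release 21, GRCm38). All 6 chains held it, at 13 places in all. Each is shown, with the 7 matched bases in capitals, because the number and kind of match differed between chains. An A after the match makes an 8-base site, and 5 of the 13 were of this kind.
Col4a1, bases 33 to 39: ccaccgtcacaacaTGGTGCTa
Col4a2, bases 43 to 49: tgggaaggccacgtTGGTGCTt
Col4a2, bases 214 to 220: caccacacccagctTGGTGCTt
Col4a3, bases 1752 to 1758: ggaagtggacgtgaTGGTGCTg
Col4a3, bases 1776 to 1782: acttaagttcaggcTGGTGCTg
Col4a3, bases 2340 to 2346: tttcactactagacTGGTGCTg
Col4a3, bases 2822 to 2828: gtttgtttcaatttTGGTGCTt
Col4a4, bases 89 to 95: tccagcaaattcagTGGTGCTc
Col4a4, bases 4294 to 4300: atgcttgaattttaTGGTGCTt
Col4a5, bases 129 to 135: actgctcccaccaaTGGTGCTa
Col4a5, bases 410 to 416: agtattctttttcaTGGTGCTa
Col4a5, bases 833 to 839: aattcttattattcTGGTGCTa
Col4a6, bases 197 to 203: tgtttccatccatcTGGTGCTa

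Of the 14832 tested genes with an annotated 3′-UTR, 15.5% held at least 1 match. A longer 3′-UTR holds more matches by length alone, and those of the 6 chains ran from 971 bases (Col4a2) to 4708 bases (Col4a4). Among 3′-UTRs of like length, the share with a match was 13.2% for Col4a1, 10% for Col4a2, 27.7% for Col4a3, 40.6% for Col4a4, 11.8% for Col4a5 and 12.4% for Col4a6. Over all lengths, 0.175% of tested genes (26) held at least 4 matches, as Col4a3 did. That share was not computed for lengths like that of Col4a3. A match of letters is not a measured binding site.

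**Figure D1:**
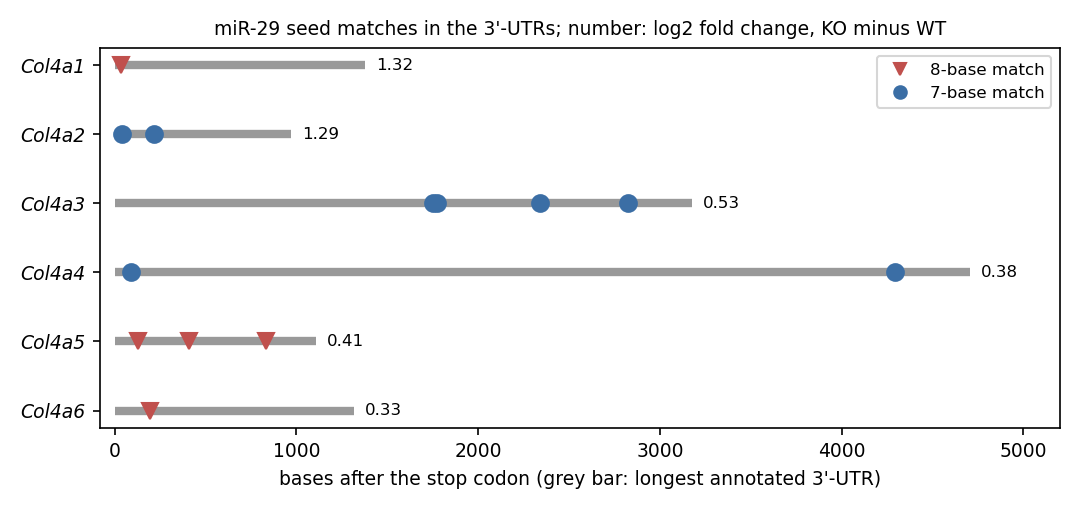
The 3′-UTR of each chain is drawn to scale in bases from the stop codon, with the 13 matches to the miR-29 seed as markers (triangles for 8-base sites, circles for 7-base sites) and the log2 fold change (KO versus WT) at the end of each bar. Col4a5 carries 3 of the 5 sites of 8 bases, and the 4 matches of Col4a3 start at base 1752 of its 3′-UTR.

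The libraries held an estimated 21500000 to 26400000 fragments each, from the size of the smallest steps between low values, and on that scale Col4a1 rested on 1199 to 6855 fragments and Col4a6, the lowest chain, on 117 to 229. Counting error was thus at most 2.89% for Col4a1 and 9.24% for Col4a6. WT1 stood apart from the other WT libraries. It was the lowest of the 8 libraries for 52.1% of the 14990 tested genes, for all 6 chains, and it carried more blood cell RNA than the other WT libraries, so the fold changes of the chains, the ratios and the counts of called genes are also given without it. The cochlear label fitted the most abundant cochlear markers, since Coch, an inner ear matrix protein, stood between 1231 and 1927 FPKM in all 8 libraries, and Gjb2, the gap junction protein of the supporting cells, between 101 and 241 FPKM. Bone, marrow and muscle genes were also present.

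The question of the comparison was which collagen IV chains differed in level when miR-29a was absent. Col4a1 and Col4a2, the chains of the widespread network, rose in KO, by 2.50-fold and 2.44-fold. The other 4 chains did not pass the test. At an unadjusted p under 0.05 in limma, 2 of the 6 chains were thus called higher, where 4.61% of all tested genes were. After Benjamini-Hochberg adjustment over all tested genes, no gene passed (0, against 767 at the unadjusted threshold), these chains included. In these bulk samples, a difference in the number of cells that make a chain and a difference in RNA per cell cannot be told apart.

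Col4a1 stood at 6.97, 20.5, 19.0 and 19.4 FPKM in WT1 to WT4 and at 39.3, 43.0, 37.3 and 33.5 FPKM in KO1 to KO4. Each KO library was above each WT library, and WT1 was far below the other WT libraries. The means were 16.5 ± 6.38 FPKM in WT and 38.3 ± 3.96 FPKM in KO (SD, n = 4 each), a limma log2 fold change of 1.32 on the log2(FPKM + 0.1) scale (SE 0.33, 95% interval 0.57 to 2.08, unadjusted p = 0.0034, adjusted p = 0.922). Without WT1 the log2 fold change was 0.95 (SE 0.11, unadjusted p = 2.74e-05, adjusted p = 0.125, limma), which is 1.93-fold, with a WT mean of 19.7 ± 0.777 FPKM (SD, n = 3).

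Col4a2, the partner of Col4a1 in the protomer, followed the same order of groups. It stood at 4.52, 12.9, 10.6 and 12.6 FPKM in WT1 to WT4 and at 24.4, 23.9, 22.7 and 21.6 FPKM in KO1 to KO4. The groups did not overlap, and the coefficient of variation was 5.43% in KO and 38.3% in WT. The means were 10.1 ± 3.89 FPKM in WT and 23.1 ± 1.25 FPKM in KO (SD, n = 4 each), a limma log2 fold change of 1.29 (SE 0.31, 95% interval 0.58 to 2.0, unadjusted p = 0.00282, adjusted p = 0.922). Without WT1 it was 0.94 (SE 0.11, unadjusted p = 2.76e-05, adjusted p = 0.125, limma), which is 1.92-fold. In that fit of 7 libraries Col4a1 and Col4a2 ranked 2 and 3 of 15019 tested genes by p, and 12.1% of all tested genes were called higher. In the fit of all 8 libraries they ranked 45 and 35 of 14990 tested genes.

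Groups that did not overlap, with each KO library above each WT library, were found for 2 of the 6 chains and for 3.02% of all tested genes.

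**Figure D2:**
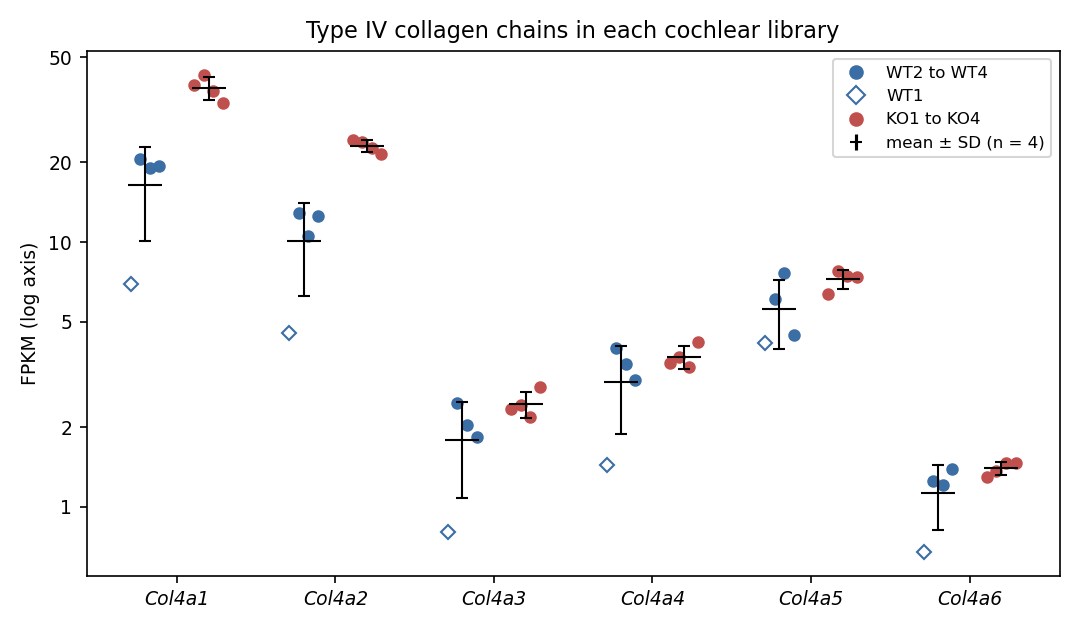
FPKM of each chain in each library (points, log axis), with WT and KO side by side and the mean ± SD of 4 libraries. The KO points of Col4a1 (33.5 to 43.0 FPKM) and Col4a2 (21.6 to 24.4 FPKM) lie above all WT points, while the groups overlap for the other 4 chains, and WT1 is the lowest point of every chain.

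Col4a3, Col4a4 and Col4a5, the chains of the tissue-restricted network, overlapped between the groups. Col4a3 stood at 0.804, 2.46, 2.04 and 1.84 FPKM in WT1 to WT4 and at 2.35, 2.42, 2.18 and 2.83 FPKM in KO1 to KO4. Of the KO libraries, 1 was above all WT libraries, and WT1 alone lay under 1.8 FPKM. The limma log2 fold change was 0.53 (SE 0.33, 95% interval -0.22 to 1.28, unadjusted p = 0.145, adjusted p = 0.947), and it was 0.21 without WT1 (unadjusted p = 0.301, adjusted p = 0.579).

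Col4a4 stood at 1.44, 3.97, 3.45 and 3.02 FPKM in WT1 to WT4 and at 3.50, 3.67, 3.37 and 4.19 FPKM in KO1 to KO4. WT2 to WT4 lay among or just below the KO libraries. The log2 fold change was 0.38 (SE 0.30, 95% interval -0.31 to 1.07, unadjusted p = 0.239, adjusted p = 0.9499, limma), and 0.082 without WT1 (unadjusted p = 0.629, adjusted p = 0.819). These intervals reach above a doubling, so the test did not show that either chain was the same in both groups.

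Col4a5 takes part in both the Col4a3 and Col4a4 protomer and the Col4a6 protomer. Its levels were 4.16, 6.08, 7.67 and 4.44 FPKM in WT1 to WT4 and 6.35, 7.75, 7.42 and 7.41 FPKM in KO1 to KO4. WT3 was within the KO range and the other 3 WT libraries were below it. The log2 fold change was 0.41 (SE 0.21, 95% interval -0.08 to 0.89, unadjusted p = 0.0909, adjusted p = 0.947, limma), it was 0.28 without WT1 (unadjusted p = 0.179, adjusted p = 0.453), and it passed the unadjusted threshold when WT3 was left out (0.57, unadjusted p = 0.0164, adjusted p = 0.952).

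Col4a6, the partner of Col4a5, was the lowest chain. It stood at 0.676, 1.25, 1.204 and 1.39 FPKM in WT1 to WT4 and at 1.30, 1.37, 1.47 and 1.46 FPKM in KO1 to KO4. WT4 lay within the KO range and the other 3 WT libraries below it, with a log2 fold change of 0.33 (SE 0.27, 95% interval -0.28 to 0.93, unadjusted p = 0.254, adjusted p = 0.9499, limma) and of 0.12 without WT1 (unadjusted p = 0.569, adjusted p = 0.783).

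**Figure D3:**
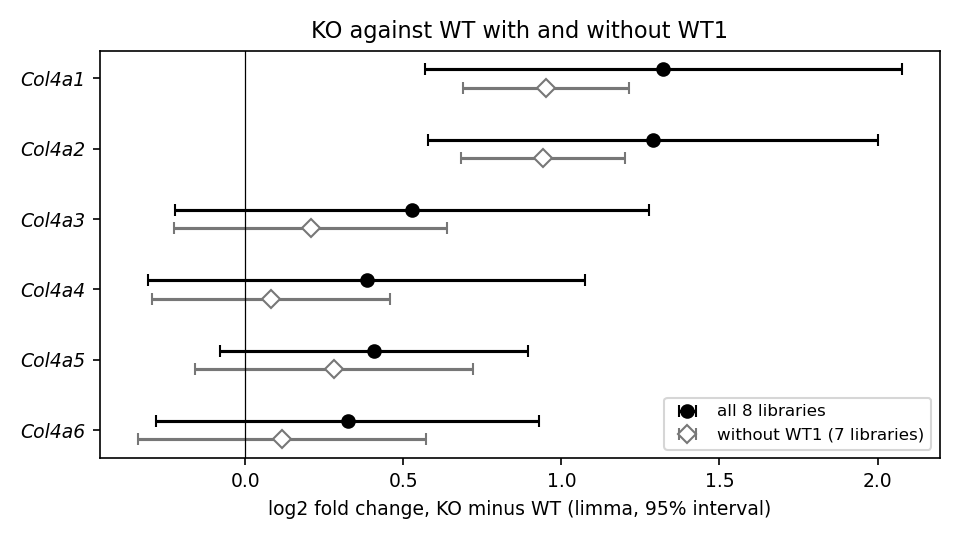
log2 fold change (KO versus WT) of each chain from limma on log2(FPKM + 0.1), with its 95% interval, in all 8 libraries (filled) and without WT1 (open). The intervals of Col4a1 (0.57 to 2.08) and Col4a2 (0.58 to 2.0) lie above 0 and those of the other 4 chains include 0 in the fit of 8 libraries.

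The estimated log2 fold changes were not in the order of the number of seed matches shown above. Col4a5, with 3 matches of 8 bases, had a log2 fold change of 0.41, and Col4a3, with 4 matches, one of 0.53. Col4a1, with 1 match of 8 bases, had one of 1.32, and Col4a6, also with 1 match of 8 bases, one of 0.33. Col4a1 also held 1 shorter site, which lacks the first base of the match and has an A after it. Sites of this kind are not among the matches shown above, and each other chain held 0. The intervals of the log2 fold changes overlapped between Col4a1 (0.57 to 2.08) and Col4a6 (-0.28 to 0.93). A role of the matches in these differences was not tested.

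The order of levels was the same in all 8 libraries. Col4a1 was highest, followed by Col4a2, Col4a5, Col4a4, Col4a3 and Col4a6. In KO no neighbours in this order had overlapping ranges over the 4 libraries. In WT the ranges of neighbours overlapped except between Col4a5 and Col4a4, because WT1 lay below the others for every chain. WT1 was low to a different degree for each chain, from 0.355 of the mean of WT2 to WT4 for Col4a1 to 0.686 for Col4a5.

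Ratios between chains of the same library do not depend on how that library was scaled, and were therefore compared next. All 15 pairs of chains were compared by a two-sided exact permutation test on the log2 of the ratio, for which 4 against 4 libraries cannot go below p = 0.0286, with Benjamini-Hochberg adjustment over the 15. The pairs share chains and are not independent. Of the 15, 9 had an adjusted p under 0.05, all at the smallest p that the design allows.

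Col4a1 and Col4a2 rose together. Their ratio was 1.54, 1.59, 1.80 and 1.54 in WT1 to WT4 and 1.61, 1.80, 1.65 and 1.55 in KO1 to KO4. The groups overlapped in a narrow range, and WT1, in which both chains were lowest, had the lowest ratio by a margin smaller than the spread of the other libraries. The mean over 4 libraries was 1.62 ± 0.122 (SD) in WT and 1.65 ± 0.106 in KO, and the difference of 0.030 on the log2 scale had a 95% interval of -0.14 to 0.20 (exact permutation p = 0.543, adjusted p = 0.740). Without WT1 the difference was 0.0074 (exact permutation p = 0.8). All 8 values were below the 2 to 1 of the protomer. FPKM is a level of mRNA, whereas protomer ratios here and below count protein chains, which were not measured in these libraries.

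Within the tissue-restricted network the ratios were uneven. Col4a3 was the lowest of its 3 chains in every library, with 0.558 to 0.619 of Col4a4 in WT and 0.648 to 0.675 in KO. This ratio did not overlap between the groups, although neither chain passed the test by itself. It was 0.594 ± 0.0266 in WT and 0.664 ± 0.0122 in KO, a log2 difference of 0.16 with a 95% interval of 0.076 to 0.25 (exact permutation p = 0.0286, adjusted p = 0.0476, n = 4 each). This adjusted p depends on the 9 of 15 pairs that share the smallest p, and those pairs share chains. No adjustment was made over the 5 pairs that assemble together alone. Counting error in a library was up to 7.47% for Col4a3 and 5.14% for Col4a4. Without WT1 the difference was 0.13 (exact permutation p = 0.0571, the smallest that 3 against 4 libraries allow). With 1 FPKM added to both chains, which weighs on chains this low, the difference was 0.062 (exact permutation p = 0.114).

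Against Col4a5, no shift was found. Col4a3 was at 0.319 ± 0.108 of Col4a5 in WT and 0.340 ± 0.0428 in KO (log2 difference 0.15, 95% interval -0.53 to 0.83, exact permutation p = 0.629, n = 4 each). Col4a4 was at 0.533 ± 0.161 of Col4a5 in WT and 0.511 ± 0.0555 in KO (log2 difference -0.014, 95% interval -0.61 to 0.59, exact permutation p = 1, n = 4 each). The WT libraries spread more widely than the KO libraries in both ratios. Without WT1 the differences were -0.070 for Col4a3/Col4a5 (exact permutation p = 0.8), which turned its direction, and -0.20 for Col4a4/Col4a5 (exact permutation p = 0.4). All 8 values of each ratio were below the 1 to 1 of the protomer. Col4a5 also goes into the Col4a6 protomer, so these are not values for the Col4a3, Col4a4 and Col4a5 protomer alone.

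The mRNA ratio of the Col4a5 and Col4a6 pair lay on the other side, above the 2 to 1 of the protomer in all 8 libraries. The ratio was 5.15 ± 1.47 in WT, from 3.18 to 6.37, and 5.17 ± 0.332 in KO (log2 difference 0.057, 95% interval -0.52 to 0.63, exact permutation p = 0.886, n = 4 each), and the difference was 0.16 without WT1 (exact permutation p = 0.629). Col4a5 is shared between 2 protomers, so a value above 2 is not a value for the Col4a6 protomer alone. The Col4a6 chain was also compared with Col4a3 (log2 difference 0.21, exact permutation p = 0.286, n = 4 each) and Col4a4 (0.043, exact permutation p = 0.8, n = 4 each), neither of which passed. Without WT1 these differences were 0.090 (exact permutation p = 0.571) and -0.042 (exact permutation p = 0.8).

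The ratios that moved most joined a chain of the widespread network to one of the other chains. All 8 such ratios were higher in KO, by 0.74 to 0.97 on the log2 scale, and none overlapped between the groups, WT1 included (exact permutation p = 0.0286, adjusted p = 0.0476 for each, n = 4 each). Each has Col4a1 or Col4a2 as its numerator, which by themselves did not overlap between the groups, so the 8 are not separate results. The share of all tested genes against which these 2 chains would also separate the groups was not computed. Col4a1 was at 9.23 ± 0.982 times Col4a3 in WT and 15.8 ± 2.71 times in KO. Against Col4a4 it was at 5.49 ± 0.683 in WT and 10.5 ± 1.70 in KO, against Col4a5 at 2.98 ± 1.16 and 5.32 ± 0.714, and against Col4a6 at 14.1 ± 2.76 and 27.5 ± 3.99. WT1, which was low for all chains, lay below every KO library in each of these ratios, as WT2 to WT4 did.

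Col4a2 gave the same picture. It was at 5.73 ± 0.775 times Col4a3 in WT and 9.56 ± 1.31 times in KO, and at 3.402 ± 0.512 times Col4a4 in WT and 6.34 ± 0.814 times in KO. Against Col4a5 it was at 1.86 ± 0.785 in WT and 3.22 ± 0.417 in KO, and against Col4a6 at 8.71 ± 1.51 in WT and 16.6 ± 1.84 in KO (SD, n = 4 each). Without WT1 the 8 log2 differences were 0.66 to 0.87, each with the smallest exact permutation p that 3 against 4 libraries allow, 0.0571.

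**Figure D4:**
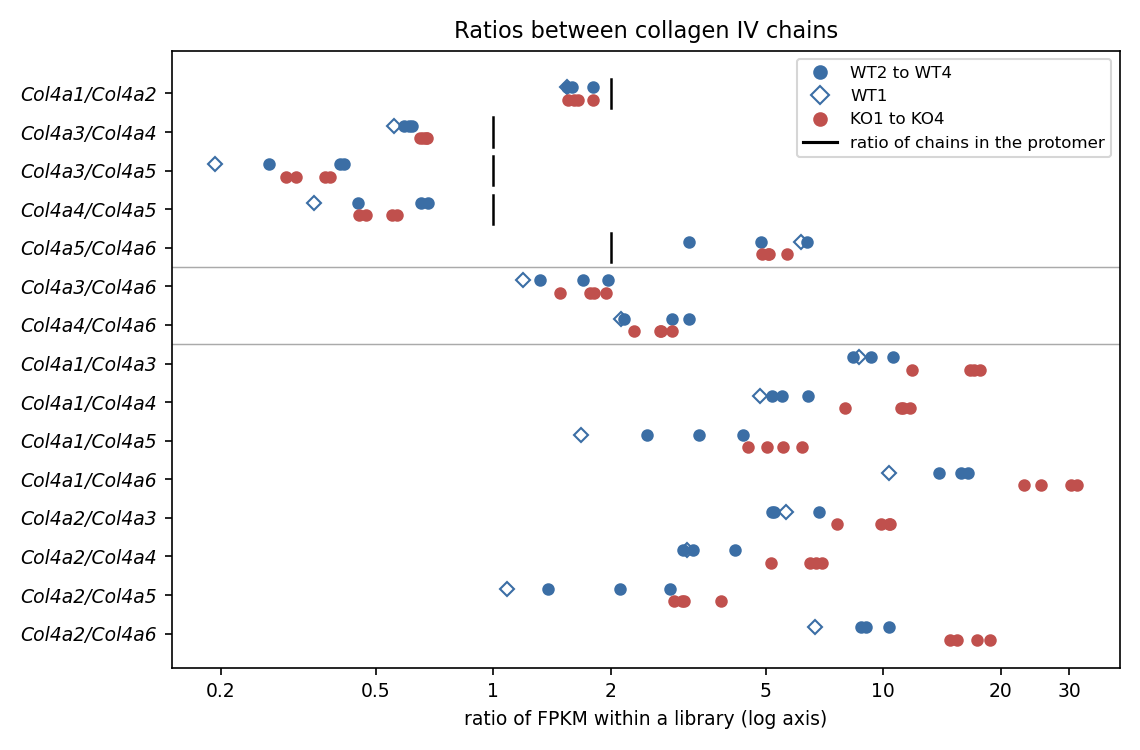
Within-library ratios of FPKM (log axis) for the pairs of chains that assemble together and for the pairs across networks, with WT and KO points for each library (WT1 as an open diamond) and the ratio of the protomer as a line where there is one. The Col4a1/Col4a2 points of both groups lie between 1.54 and 1.80, whereas the KO points of the pairs across networks lie above all their WT points.

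As a share of the summed FPKM of the 6 chains, Col4a1 and Col4a2 together made up 61.9, 70.8, 67.3 and 74.96% in WT1 to WT4 and 82.5, 81.5, 80.6 and 77.6% in KO1 to KO4. WT4 and KO4 were the nearest pair of the 2 groups, and the sum itself went from 38.1 ± 13.2 FPKM in WT to 76.1 ± 4.69 FPKM in KO (SD, n = 4 each). The share of Col4a3 was below its WT range in every KO library, at 4.30 to 5.21% in WT and 2.93 to 3.99% in KO. The same held for Col4a4, at 7.08 to 8.41% in WT and 4.47 to 5.91% in KO, and for Col4a6, at 2.65 to 3.64% and 1.67 to 2.06%. The Col4a5 share overlapped between the groups, with 10.4 to 22.4% in WT and 8.23 to 10.5% in KO. Shares add up to a fixed total, so these smaller shares stand beside mean FPKM that were not lower in KO.

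**Figure D5:**
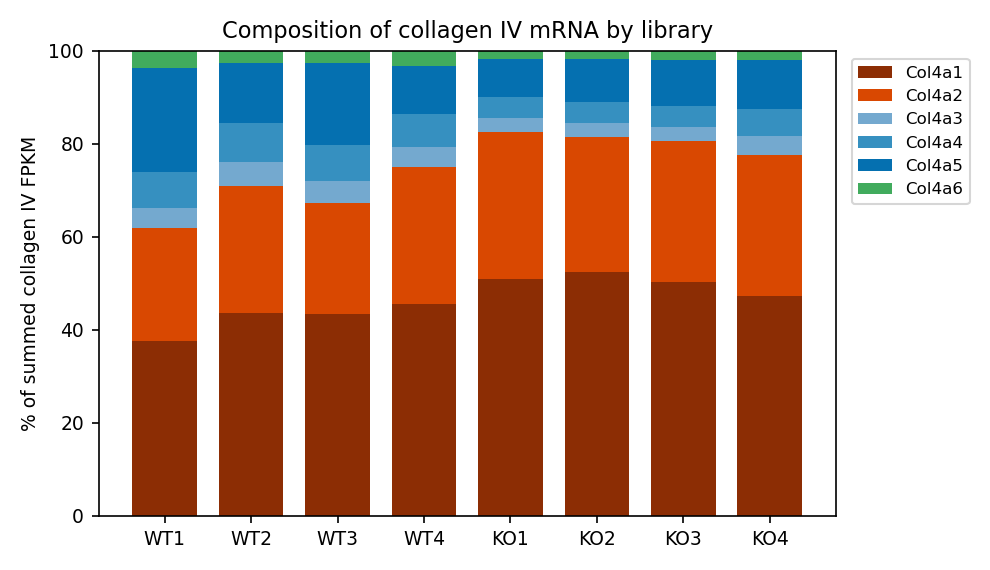
Share of each chain in the summed FPKM of the 6 chains, in percent, as stacked bars from 0 for each library. Col4a1 and Col4a2 together fill 77.6 to 82.5% of the bar in KO and 61.9 to 74.96% in WT.

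The chains were then set beside other genes of the same matrix. Among 26 other basement membrane components, 5 were called higher and 0 lower, with a median log2 fold change of 0.23. Over all tested genes, 4.61% were called higher and 0.507% lower, with a median of 0.10. Without WT1, 6 of the 26 were called higher and 1 lower (median 0.080), beside 12.1% higher and 7.40% lower over all tested genes (median -0.024). Sparc, a collagen-binding protein that attends collagen IV deposition, stood at 310 to 335 FPKM in WT and 764 to 936 FPKM in KO, without overlap and with WT1 at the level of the other WT libraries (log2 fold change 1.33, unadjusted p = 0.000217, adjusted p = 0.870, limma). Lamb3 (0.46) and Lamc1 (0.44), chains of laminin, the other network-forming protein of basement membranes, were called as well (unadjusted p = 0.0212, adjusted p = 0.947 each, limma).

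Of 25 genes for the synthesis, folding, secretion and crosslinking of collagen IV, 3 were called higher and 0 lower, with a median of 0.24 (4 and 2 without WT1, median 0.17). Over all tested genes 4.61% were called higher and 0.507% lower, and without WT1 12.1% and 7.40%. Lox, a lysyl oxidase that crosslinks collagen, rose from 9.01 ± 2.24 to 19.1 ± 5.10 FPKM (log2 fold change 1.07, unadjusted p = 0.00209, adjusted p = 0.922, limma). Loxl2, which crosslinks the 7S end of the collagen IV network, rose from 2.30 ± 0.926 to 4.12 ± 0.509 FPKM (0.92, unadjusted p = 0.0236, adjusted p = 0.947, limma), and P3h1, a prolyl 3-hydroxylase, by 0.35 (unadjusted p = 0.0357, adjusted p = 0.947, limma). Neither Lox nor Loxl2 overlapped between the groups.

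Of 15 receptors listed for collagen IV and other matrix proteins, 1 was called higher, Cd93, a receptor of endothelial cells (7.93 ± 2.89 to 13.4 ± 2.06 FPKM, 0.80, unadjusted p = 0.0108, adjusted p = 0.947, limma), and 0 lower, with a median of 0.14 (4 and 1 without WT1, median 0.042). The share called higher over all tested genes was 4.61%, and 12.1% without WT1. The shares called lower were 0.507%, and 7.40% without WT1. Of 12 tested proteases of basement membranes and their inhibitors, 2 were called higher and 0 lower, with a median of 0.20 (also 2 and 0 without WT1, median 0.099). Mmp2, which cleaves collagen IV, rose from 19.7 ± 3.73 to 31.1 ± 1.12 FPKM (0.68, unadjusted p = 0.00246, adjusted p = 0.922, limma), and Mmp14, which activates Mmp2, by 0.30 (unadjusted p = 0.0432, adjusted p = 0.947, limma). Without WT1, Mmp14 was not called (0.26, unadjusted p = 0.0541, limma), and the other genes named from these 4 lists were. No gene of the 4 lists passed the Benjamini-Hochberg adjustment (0 of 78, against 11 at the unadjusted threshold).

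Cells that make collagen IV were followed by their markers. Of 15 endothelial and 13 pericyte and smooth muscle markers, 0 were called in either direction, with median log2 fold changes of 0.14 and 0.25, and 2 of each list were called higher without WT1 (medians 0.063 and 0.18), where 12.1% of all tested genes were. The summed endothelial level was 130.6 to 147.9 FPKM in WT and 148.1 to 168.8 FPKM in KO, without overlap but nearly touching, and the sum was 142 to 166 FPKM and 155 to 205 FPKM for pericytes and smooth muscle. Pecam1, an adhesion molecule of endothelial cells, stood at 11.4 ± 2.79 FPKM in WT and 13.8 ± 2.25 FPKM in KO (unadjusted p = 0.193, adjusted p = 0.947, limma), and Rgs5, which marks pericytes, at 41.5 ± 9.99 FPKM and 35.9 ± 1.94 FPKM (unadjusted p = 0.328, adjusted p = 0.963, limma). Log2 fold changes were above 0 for 13 of the 15 endothelial markers and 11 of the 13 pericyte and smooth muscle markers. The share above 0 over all tested genes was 66.5%. Rgs5 was below 0, at -0.18. Without WT1 Pecam1 was called higher (log2 fold change 0.43, unadjusted p = 0.0366, limma) and Rgs5 was not called (-0.31, unadjusted p = 0.0599, limma). Relative to the summed endothelial markers, Col4a1 was at 0.0497 to 0.146 in WT and 0.221 to 0.289 in KO, and relative to the pericyte sum at 0.0490 to 0.129 and 0.192 to 0.278, so that neither ratio overlapped between the groups. These ratios to marker sums were chosen after the values were seen. Col4a1 did not overlap between the groups before this division either, and the part of vascular cell number in its difference was not tested.

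Schwann cells, which lay down basement membrane around nerve fibres, gave summed markers of 507 to 1627 FPKM in WT and 851 to 1111 FPKM in KO, with 0 of 12 called and a median of 0.047. Without WT1 the median turned to -0.31, and 2 were called lower. Cochlear markers (19 tested) gave 0 called higher and 1 lower, Tectb, a protein of the tectorial membrane (log2 fold change -1.19, unadjusted p = 0.0101, adjusted p = 0.947, limma), and a median of -0.11. Without WT1, 4 were called lower and the median was -0.34, beside 7.40% lower over all tested genes. Myo7a, a hair cell myosin, stood at 7.74 ± 1.90 FPKM in WT and 6.47 ± 1.005 FPKM in KO (unadjusted p = 0.284, adjusted p = 0.957, limma).

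Markers of tissue around the cochlea had higher medians than the genes above, with sums that did not overlap between the groups for bone only. Over all tested genes 4.61% were called higher, and 12.1% without WT1. Bone markers gave 3 of 13 called higher, Col1a1, Col1a2 and Sost, and a median of 0.87 (7 of 13 and 1.25 without WT1), with summed levels of 1284 to 2216 FPKM in WT and 2244 to 2744 FPKM in KO. Marrow and blood markers gave 4 of 20 called higher and a median of 2.19 (20 of 20 and 2.87 without WT1), with 506 to 16994 FPKM in WT and 6583 to 17124 FPKM in KO. Hbb-bs, a globin and the most abundant of them, stood at 259 to 4151 FPKM in WT and 2495 to 6553 FPKM in KO. Among the WT libraries WT1 had the highest sums of both lists, and it had the lowest Col4a1. It was also the lowest of the 8 libraries for 52.1% of all tested genes. In WT2 to WT4 the bone sums were 1284 to 1534 FPKM and the marrow sums 506 to 4504 FPKM, below every KO library. Muscle markers gave 1 of 13 called, Mylpf, and a median of 2.44 (52.3 to 205 FPKM in WT and 91.1 to 649 FPKM in KO, highest in KO3), and adipocyte markers 1 of 8, Cfd, and a median of 1.68 (2.11 to 40.7 FPKM and 9.42 to 66.2 FPKM). Each of these 2 lists also had 1 marker called without WT1 (medians 2.31 and 1.26). Adipoq, a hormone of fat cells, was listed at 0 in WT3. The part of these tissues in the collagen IV difference was not tested.

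Promoter sequence was available in RefSeq windows (GRCm38, 300 bases, 250 before to 50 after the start) for 5 of the 6 chains, all but Col4a3. G and C made up 74% of the Col4a1 window and 73.7% of the Col4a2 window, 63.3% for Col4a4, 52.7% for Col4a5 and 48.3% for Col4a6, beside a median of 52.7% over 27025 windows. The windows of Col4a1 and Col4a2 were the richest in G and C of the 5, and they share 78 bases because the genes start back to back. A link between the promoter sequence and the levels of the chains was not tested. The motifs searched on both strands were GGGCGG, found in 35.9% of all windows, CCAAT in 37.9% and TATAAA in 14.2%. None of the 3 was found in the 71 bases between Col4a4 and Col4a3, which says only that these letters are not in this gap.

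Across the 8 libraries the gene most like Col4a1 in log2 level was Traf3 (Pearson r = 0.989), followed by Crlf2 (0.986) and Siah1b (0.980). For Col4a2 the nearest were Cxxc1 (0.984), Traf3 (0.982) and Siah1b (0.979). Impa1 and Mprip were nearest to both Col4a3 (0.993 and 0.990) and Col4a4 (0.989 and 0.994), followed by Grrp1 for Col4a3 (0.986) and Sdhaf1 for Col4a4 (0.978). For Col4a5 they were Sntb1 (0.967), Siah3 (0.961) and Chmp4c (0.961), and for Col4a6 Gmppb (0.990), Casc3 (0.989) and U2af2 (0.989). These are descriptions over 8 points that share the low WT1 library. Taken as deviations from the group means, Col4a1 was nearest to Gadd45g (0.995), Hnrnpa2b1, Chpf, Zmat2 and Wdr83, and 310 genes had r above 0.95. Col4a2 was nearest to Isy1 (0.997), Fkbp2, Traf3ip1, Exosc2 and Hnrnpa2b1, with 286 such genes.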

How the data were processed

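The authors made strand-specific, rRNA-depleted libraries, mapped the reads with Hisat2, and deposited values in FPKM (21895 genes, 8 libraries). The tool and annotation behind FPKM are not given in the sources used here. Processing notes name mm9, but the coordinates were those of GRCm38 for 19771 of 21760 identifiers matched to GENCODE release 21. 27 date-mangled symbols were restored, and 0 per-sample columns were unused. DESeq2, which the authors ran on counts, cannot be run on FPKM. Groups were taken from the labels. log2(FPKM + 0.1) of genes with a mean of at least 0.5 was fitted with limma 3.58.1 (R 4.3.3, variance trend, genotype only, 8 libraries). Genes with an unadjusted two-sided p under 0.05 were called, as in the study's methods, with Benjamini-Hochberg values beside them. Ratios used exact permutation tests (SciPy 1.17.1). Depth was estimated from the steps between low values of 1-transcript genes, of which 41.1 to 50.3% were within 3% of a whole multiple. Intervals cover replicate spread, and fragment errors counting alone. The fits were tested on simulated data. Members and gene lists were chosen with earlier results of these data known. Named genes are the 6 chains, the 3 called genes of smallest p per matrix list, the nearest genes by r, and leading or called markers, of which 1 is not reported here. Alternatives were the pseudocount, filter, scaling, trend, library weights, replicate block and leaving out libraries. Same-numbered libraries were compared by the correlation of their deviations from the group means.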

Additional observations from a re-analysis of the deposited data

Results flagged for a closer look

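In groups of 4 libraries, the gap of the lowest or highest library to its nearest neighbour was compared with Dixon's 95% critical value of 0.829. Over 42 groups of chain levels and ratios, 4 exceeded it, where chance gives about 1 in 20. Col4a1 in WT1 was 6.97 FPKM, against 19.0 to 20.5 FPKM in the other WT libraries. KO4 was low in 3 ratios across networks. Its Col4a1/Col4a3 ratio was 11.8 (16.7 to 17.7 in the other KO libraries), its Col4a1/Col4a4 ratio was 7.99 (11.1 to 11.7), and its Col4a2/Col4a3 ratio was 7.62 (9.85 to 10.4). These 3 ratios share chains, and each was still above every WT library.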

How the results depend on the processing

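Col4a1 and Col4a2 were called in 17 of 17 alternatives each, with log2 fold changes of 0.95 to 1.503 and 0.91 to 1.46, and adjusted p-values from 0.0483, under library weights, to 0.9999. The library weights gave WT1 0.108 and the other libraries 0.548 (WT3) to 2.81 (WT4), so WT1 counted least in that setting. The log2 fold change of Col4a5 passed the unadjusted threshold under library weights (0.48) and ranged from 0.28 to 0.57 over libraries left out, passing without WT3. The Col4a3/Col4a4 difference fell to 0.062 with a pseudocount of 1. Genes called higher and lower, 691 and 76, became 402 and 363 under median-ratio scaling, 378 and 547 under quantile normalization, and 2504 and 1629 (4133 in all) under library weights. Genes called lower numbered 148 without the filter and 42 in replicates 1 to 3. Leaving out 1 library gave 347 to 2922 calls, with 292 to 1810 higher (highest without WT1, lowest without KO2, 323, and KO3, 292) and 35 to 1112 lower (lowest without WT2, highest without WT1). Benjamini-Hochberg calls numbered 3 without the filter, 446 under library weights, 1 in replicates 1 to 3, and 0 to 1 over libraries left out. The cause was not tested. Same-numbered libraries correlated at 0.419, -0.240, -0.170 and 0.210, so the numbers were not shown to pair them. With the replicate block, 838 genes were called (738 higher, 100 lower), Col4a1 had an unadjusted p = 0.00579 and Col4a2 an unadjusted p = 0.00587 (limma), and each of the 6 chains kept its side of the threshold. A paired exact test of a ratio cannot go below p = 0.125, which the 8 ratios across networks reached. These 8 were higher in KO in all 96 alternative values, by 0.66 to 1.21 (log2). As the groups did not overlap in these ratios, leaving out libraries could not turn the direction. The replicate block left each difference as it was, so only the size of most of these values was free to change. Counting error limits Col4a6 and Col4a3 most, and levels between chains depend on the transcript lengths used.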
